A study of Mus musculus with 8 samples.

Results

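The genes described here are 40 genes of protein folding, the unfolded protein response and secretion at the endoplasmic reticulum (ER), chosen by symbol from the 47706 genes in a table of RNA sequencing counts. Expression was measured in 8 cultures of primary mouse calvarial osteoblasts, the bone-forming cells obtained by digesting the skullcaps of newborn mice. Of these, 4 cultures were treated with parathyroid hormone (PTH) for 24 hours and 4 with vehicle, in each case after 7 days of differentiation. The medium is called adipogenic in the labels and osteogenic in the study's methods. Both treatments shared the culture protocol, which included a short serum starvation, and neither strain nor genotype is given for these cultures (the prefix "Con" in the sample names is not explained). Whether the 4 cultures of a treatment came from separate isolations of cells is also not given, so the p-values below measure the spread between these samples, which may be technical. The 40 genes comprised 18 for folding, 6 for stress sensors and their transcription factors, 6 for ER-associated degradation (ERAD), 4 for the translocon and 6 for COPII transport, and all 40 passed the filter on low counts.

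Proteins bound for the cell surface or the matrix enter the ER through the SEC61 translocon, fold there with the help of chaperones and disulfide isomerases, and leave in vesicles coated by COPII. When unfolded proteins accumulate, the membrane sensors IRE1, PERK and ATF6 start the unfolded protein response, which slows translation, raises chaperone and ERAD genes and, if it persists, can turn to cell death. Osteoblasts lean heavily on this machinery because they secrete type I collagen, whose large procollagen needs dedicated chaperones and cargo receptors, and PTH acts on them through a receptor coupled to cyclic AMP.

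After 24 hours of PTH the abundant chaperones of the ER did not pass the test for a change. Single genes of the sensors and of ERAD did, in both directions, and single genes of the translocon and of COPII transport did, upward only. Creb3l2, a transcription factor of the ER membrane that drives secretory genes, rose by 145%. Herpud1, an ERAD component, fell by 41.3%, and Eif2ak3, which encodes PERK, fell by 34.1%. Smaller rises were seen for the translocon subunit Sec61b and its partner Ssr4, for the procollagen cargo receptor Mia3, for the COPII GTPase Sar1b and for the ERAD genes Derl1 and Syvn1. The folding gene Manf and Ern1, which encodes the sensor IRE1, rose as well. Hyou1 and Edem1 also passed as upregulated, but not under all 14 alternative fits.

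The ER stress element, the letters CCAAT and CCACG with any 9 bases between them, is the site at which ATF6 acts in chaperone promoters, and it was searched for on both strands of the RefSeq promoter windows of GRCm38.p6 (250 bases before to 50 after the start site). Windows were at hand for 33 of the 40 genes (not for Hyou1, Manf, Fkbp10, Atf6, Creb3l1, Derl1 and Sec61a1). An exact match lay in 9 of these 33 (27.3%), against 37 of all 27025 genes with a window (0.137%). The element is known from chaperone promoters and the set was chosen to hold such chaperones, so these shares are a description and not a test. The lines below show it for the chaperones Hspa5, Hsp90b1, Calr and Canx, and for Syvn1, the only one of the 9 that passed the test for a change with PTH. Herpud1 holds the related ER stress element II (ATTGG, any 1 base, then CCACG), found in 12 genes in all, and Sec24d holds the core of the unfolded protein response element TGACGTGG, found in 193 genes (0.714%). Each is written on the strand of its gene with the match in capitals and 15 bases on either side, and a match on the opposite strand appears as its reverse complement.
Hspa5: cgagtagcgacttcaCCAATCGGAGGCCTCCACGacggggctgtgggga
Hsp90b1: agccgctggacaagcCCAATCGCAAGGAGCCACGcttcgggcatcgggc
Calr: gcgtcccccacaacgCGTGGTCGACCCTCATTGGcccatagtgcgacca
Canx: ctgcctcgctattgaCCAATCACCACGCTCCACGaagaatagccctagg
Syvn1: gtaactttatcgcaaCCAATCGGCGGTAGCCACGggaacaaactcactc
Herpud1: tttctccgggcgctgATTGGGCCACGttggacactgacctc
Sec24d: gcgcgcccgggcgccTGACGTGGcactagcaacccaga

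These stretches lie at chr2:34772010-34772058 (plus strand, Hspa5), chr10:86705623-86705671 (minus, Hsp90b1), chr8:84847060-84847108 (minus, Calr), chr11:50325785-50325833 (minus, Canx), chr19:6046517-6046565 (plus, Syvn1), chr8:94386362-94386402 (plus, Herpud1) and chr3:123267455-123267492 (plus, Sec24d). The match begins 65 bases before the RefSeq start site of Hspa5, 44 before that of Syvn1 and 52 before that of Herpud1. Hsp90b1 has a further match 107 bases before its start, and Dnajc3, Creld2, Pdia6 and Derl3 hold the remaining ones. Dnajb11 (element II) and Sec23a (the core) have matches that overlap or follow the start site. No member's window held the cyclic AMP response element TGACGTCA or the amino acid response element core TGATGCAAT, which were found in 2.03% and 0.222% of genes. A match is a description of these letters, and no match says only that they are not in this window.

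Total counts lay between 33605610 and 56090654 per sample, and the 40 genes took between 1.15% and 1.45% of them. CPM values are counts scaled to the library size after TMM normalization. Each log2 fold change sets PTH against vehicle and is printed ± its standard error from the fit. They come from edgeR's quasi-likelihood test over the 16736 genes that passed the filter, with Benjamini-Hochberg adjustment and a threshold of 0.05. As a check of the labels, Tnfsf11, the gene for the PTH target RANKL, had between 0.987 and 1.79 CPM with vehicle and between 115 and 157 CPM with PTH. Osteoblast markers summed to between 92462 and 104643 CPM with vehicle and between 86513 and 125030 CPM with PTH, and 3 of the 10 fell (Sp7, Runx2 and Dmp1). The 8 adipocyte markers summed to between 420 and 497 CPM in the 8 samples, most of it Lpl, the defining Adipoq and Plin1 reached at most 8.51 CPM, and 1 of the 8, Pparg, fell (vehicle mean 16.04 CPM, PTH mean 5.67 CPM, adjusted p = 3.66e-07). Macrophage markers summed to between 1020.3 and 1650.3 CPM with vehicle and between 1600.6 and 2076 CPM with PTH, with Lyz2, Cd14 and Tyrobp upregulated among 10. Chondrocyte markers summed to between 316 and 331 CPM with vehicle and between 369 and 485 CPM with PTH (Col2a1 and Acan upregulated among 5), endothelial markers to between 5.66 and 7.11 CPM in all samples (Kdr upregulated and Tek downregulated among 5), and markers of plasma cells, the other professional secretory cell, to at most 0.632 CPM with Mzb1 at 0. What part these cells had in the results was not tested, and in bulk RNA fewer cells of a type and less RNA per cell cannot be told apart.

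Of the 40 genes, 11 (27.5%) were upregulated, against 23.3% of all genes tested, and 2 (5%) were downregulated, against 22.5% of all genes tested. All 4 PTH samples lay above all 4 vehicle samples for 12 genes (30%; 21.2% of all genes) and below them for 2 (5%; 21.8% of all genes). The median log2 fold change of the 40 was 0.06, beside a median of 0.00 over all genes tested. Creb3l2 was the single one of the 13 whose change reached 1 on the log2 scale.

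**Figure D1:**
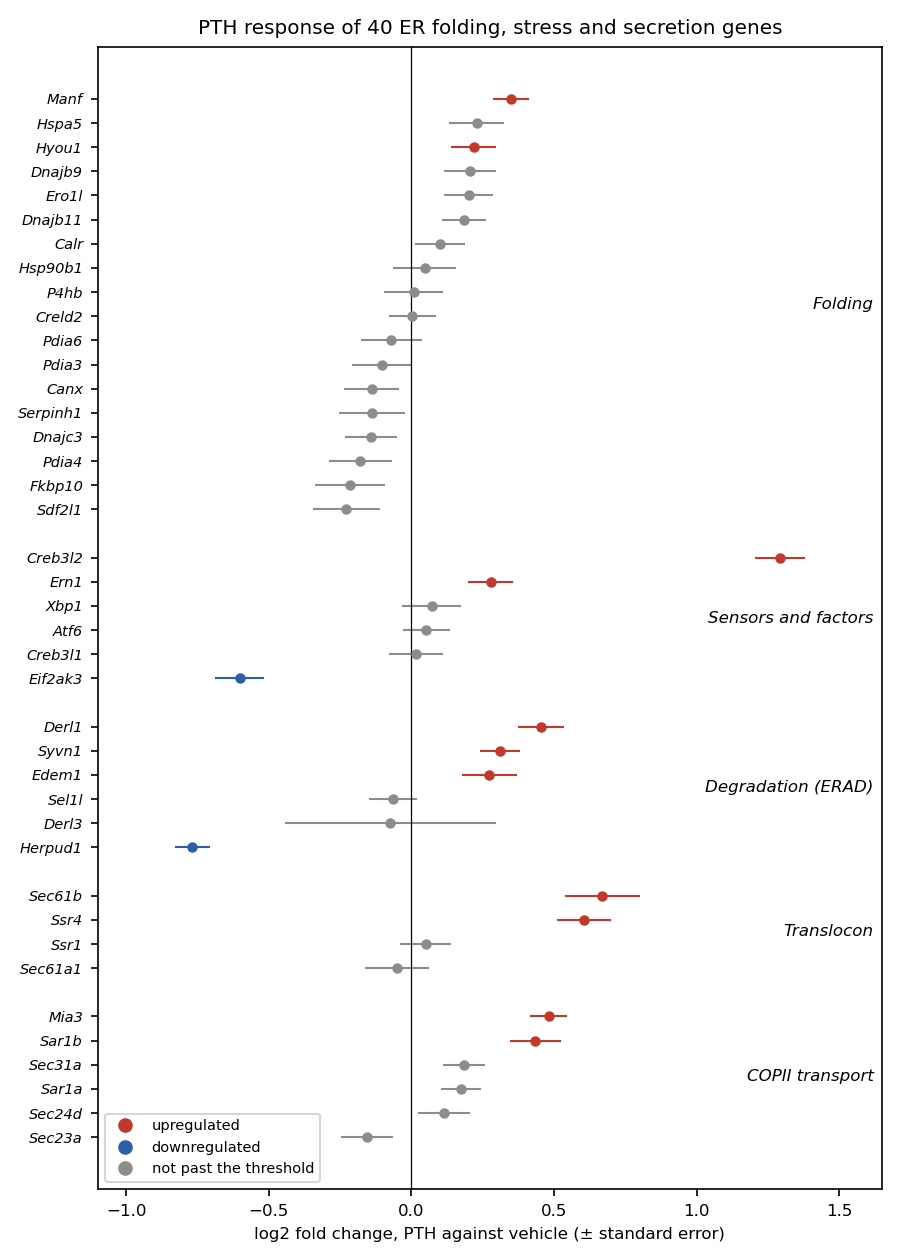
Log2 fold change of each of the 40 genes with PTH against vehicle (points, with standard errors as bars), ordered within the folding, sensor, ERAD, translocon and COPII subgroups; red points were upregulated, blue points downregulated and grey points did not pass the threshold. Creb3l2 stands farthest to the right at 1.29 and Herpud1 farthest to the left at -0.77, while 16 of the 18 folding genes are grey.

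The 5 highest levels of the set belonged to folding genes. Per kilobase of the longest coding transcript, vehicle cultures held 1225 CPM of Serpinh1, 529 of Calr, 393 of P4hb, 343 of Pdia3 and 265 of Hsp90b1. Serpinh1 encodes HSP47, the collagen-specific chaperone, Calr the lectin chaperone calreticulin, P4hb and Pdia3 disulfide isomerases (P4hb is also a subunit of the collagen prolyl hydroxylase) and Hsp90b1 the chaperone GRP94. At the other end, the sensors Ern1 and Atf6 had 4.58 and 7.78 CPM per kilobase, and Derl3, an ERAD gene known from secretory tissues, had 0.597.

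Of the 18 folding genes, 2 were upregulated and none downregulated, against 23.3% and 22.5% of all genes tested. Their median log2 fold change was 0.01. Without adjustment 6 were higher and 0 lower at a p under 0.05, beside 4419 and 4340 of all 16736 genes tested. For the folding genes DESeq2 gave 1 and 0 after adjustment.

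Manf encodes a secreted protein that binds the chaperone BiP and is released under ER stress (chr9:106838312-106891979). Its levels were 128, 118, 114 and 116 CPM in vehicle samples 1 to 4 and 151, 148, 160.1 and 146 CPM in PTH samples 1 to 4. The groups did not overlap, and the log2 fold change was 0.35 ± 0.06 (adjusted p = 7.42e-04). The assembled locus of Manf also holds Rbm15b, whose log2 fold change was -0.18 (adjusted p = 0.16).

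Hyou1, the nucleotide exchange factor and chaperone GRP170 (chr9:44379490-44392369), was at 109.9, 109.6, 111 and 108 CPM with vehicle and at 145, 118, 113 and 133 CPM with PTH. Every PTH sample was higher than every vehicle sample, though 1 of them by little, and the log2 fold change was 0.22 ± 0.08 (adjusted p = 0.038). This call held under 5 of 14 alternative fits, and the adjusted p lay between 0.0037 and 0.15 over the 14.

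Hspa5, which encodes BiP, the chaperone that keeps the sensors inactive, had 735, 741, 728 and 733 CPM with vehicle and 1026, 727, 811 and 878 CPM with PTH. The vehicle samples were nearly level, whereas the PTH samples spread from below them to well above them. The log2 fold change of 0.23 ± 0.10 did not pass the threshold (adjusted p = 0.072). Without the second PTH sample it was 0.31 with an adjusted p of 0.0099.

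The co-chaperones of BiP did not pass the threshold either. Dnajb9 had a log2 fold change of 0.21 (adjusted p = 0.087), Dnajb11 one of 0.18 (adjusted p = 0.066) and Dnajc3, whose product also restrains PERK, one of -0.14 (adjusted p = 0.22). Sdf2l1, a partner of Dnajb11 that limits chaperone aggregation, was at 18.9, 19.0, 16.2 and 18.9 CPM with vehicle and at 15.2, 12.6, 18.9 and 15.7 CPM with PTH. Its groups overlapped through the third sample of each treatment (log2 fold change -0.23, adjusted p = 0.13).

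The calnexin cycle and the disulfide enzymes did not pass the threshold. Calr ranged from 1072 to 1225 CPM with vehicle and from 1071 to 1348 CPM with PTH (log2 fold change 0.10 ± 0.09), and Canx, the membrane-bound counterpart of Calr, had -0.14 ± 0.10. P4hb stood at 0.01 ± 0.10, Pdia3 at -0.10 ± 0.11, Pdia4 at -0.18 ± 0.11 and Pdia6 at -0.07 ± 0.11. Ero1l, the oxidase that recharges the isomerases, had 0.20 (adjusted p = 0.080), Creld2, a small disulfide-handling protein, 0.00 ± 0.08 and Hsp90b1 0.05 ± 0.11. A value that misses the threshold at standard errors of this size does not show that the levels were equal.

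The dedicated collagen chaperones likewise did not pass the threshold. Serpinh1 was at 2896, 2803, 2696 and 2749 CPM with vehicle and at 3033, 1993, 2411 and 2680 CPM with PTH, so that the PTH samples enclosed the vehicle samples on both sides (log2 fold change -0.14 ± 0.12, adjusted p = 0.35). Fkbp10, a prolyl isomerase of procollagen, ran from 559.8 to 596 CPM with vehicle and from 388 to 602 CPM with PTH (log2 fold change -0.22 ± 0.12, adjusted p = 0.17). Col1a1 itself, the client of both, had a log2 fold change of 0.12 (adjusted p = 0.49).

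**Figure D2:**
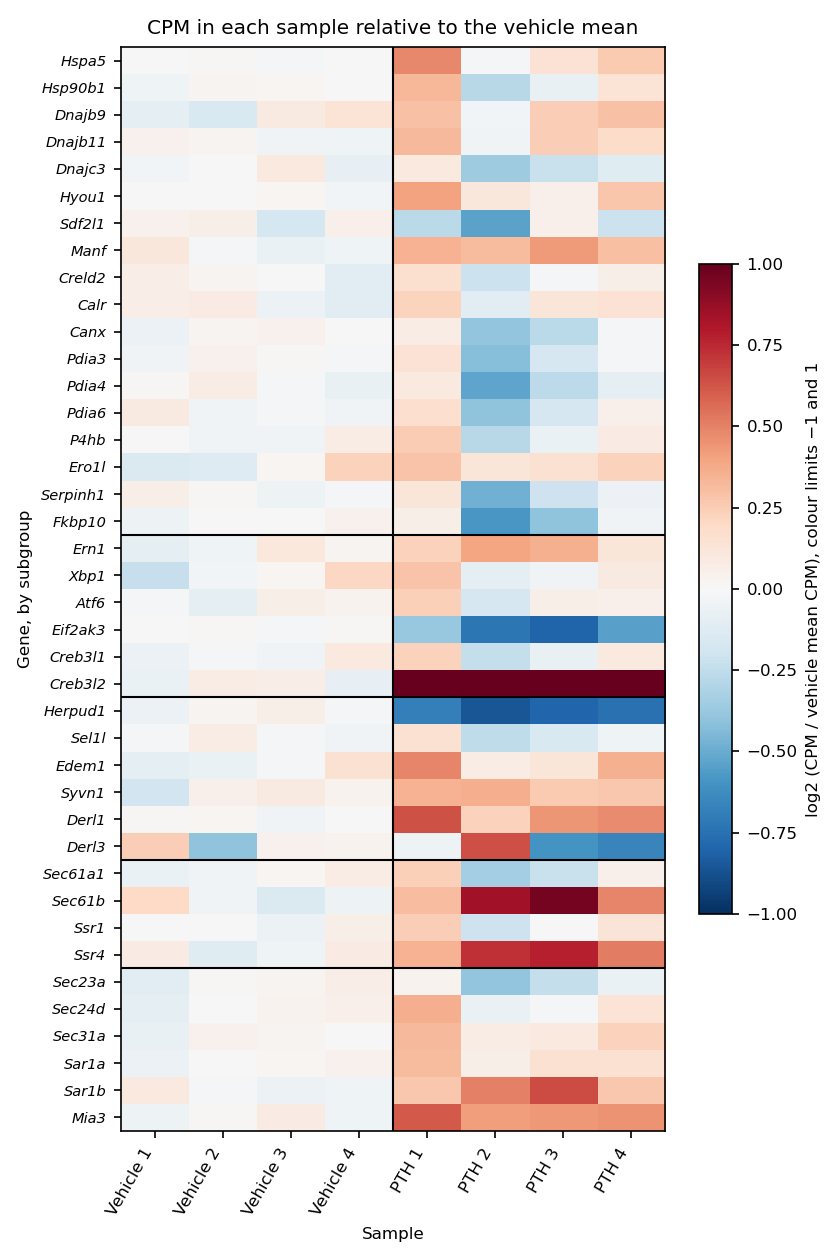
Log2 of the CPM of each gene (rows, grouped as folding, sensors, ERAD, translocon and COPII from the top) in each of the 8 samples (columns) relative to the mean of the 4 vehicle samples; red is above and blue below that mean, with colours saturated at 1 either way. Creb3l2 is red and Eif2ak3 and Herpud1 are blue in all 4 PTH samples, and PTH sample 2 is the lowest PTH sample for 31 of the 40 genes.

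The spread within the PTH group ran the same way for most of the set. PTH sample 1 was the highest of the 4 PTH samples for 31 of the 40 genes, against 29.9% of all genes tested, and PTH sample 2 was the lowest for 31 of the 40, against 29.7% of all genes tested. The summed level of the 40 genes was 15919, 11668, 13199 and 14364 CPM in PTH samples 1 to 4, in the order of their depth, with sample 1 the deepest and sample 2 the shallowest. In the vehicle samples the sum lay between 13376 and 13615 CPM. Without the 10 most abundant genes the remaining 30 gave 5085, 4034, 4386 and 4638 CPM in PTH samples 1 to 4, which is the same order. Col1a1 was also highest in PTH sample 1 (58075 CPM, against 41751 to 50559 in the others). The macrophage markers were mixed there. Lyz2 (1169.9 CPM, against 1333 to 1593), Ptprc, Aif1, Mrc1 and Tyrobp were lowest in PTH sample 1. Adgre1 (85.9 CPM) and Cd14 (15.4 CPM) were highest in it, and Cd68, Csf1r and Itgam were neither. The part of depth or of other cells in this order was not tested. It bears on the calls. Without PTH sample 1, 6 of the 40 genes were downregulated, with Dnajc3, Pdia4, Fkbp10 and Sec23a added to Eif2ak3 and Herpud1. Without PTH sample 2, 16 were upregulated, with Hspa5, Dnajb9, Dnajb11, Sec31a and Sar1a added. The counts over all genes moved too. With 1 of the 8 samples left out, 3412 to 4119 genes were upregulated and 3259 to 3955 downregulated, beside 3907 and 3762 of 16736 with all samples.

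Among the 6 sensors and factors, 2 were upregulated and 1 was downregulated, against 23.3% and 22.5% of all genes tested. Their median log2 fold change was 0.06. Creb3l2 (chr6:37327255-37442146) encodes an ER membrane protein that is cut in the Golgi to release a transcription factor for COPII and secretory genes, known from cartilage. Its levels were 98.1, 108, 108 and 97.3 CPM in vehicle samples 1 to 4 and 294, 229, 233 and 251 CPM in PTH samples 1 to 4. The lowest PTH sample was thus more than double the highest vehicle sample, and the log2 fold change was 1.29 ± 0.09 (adjusted p = 1.65e-07).

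Its close relative Creb3l1, or OASIS, which is known to promote type I collagen transcription in osteoblasts, was the more abundant of the pair and did not pass the threshold. Per kilobase, Creb3l1 had 116 CPM with vehicle and 118 with PTH, while Creb3l2 had 14.5 and 35.6. Creb3l1 was at 290.1, 300.3, 296 and 324 CPM with vehicle and at 356, 256, 287 and 324 CPM with PTH (log2 fold change 0.02 ± 0.10, adjusted p = 0.91).

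Eif2ak3 encodes PERK, the kinase that phosphorylates eIF2alpha and thereby slows translation (chr6:70844515-70905245). It was held within 77.8 to 79.6 CPM in the 4 vehicle samples and was at 60.6, 47.8, 45.3 and 54.2 CPM in PTH samples 1 to 4. No sample overlapped, and the log2 fold change was -0.60 ± 0.09 (adjusted p = 1.23e-04).

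Ern1, which encodes the sensor IRE1 (chr11:106394650-106487852), moved the other way. It was at 29.8, 30.8, 34.3 and 32.3 CPM with vehicle and at 37.4, 41.8, 40.7 and 34.5 CPM with PTH. The groups were separated by a narrow margin, from 34.3 to 34.5 CPM, and the log2 fold change was 0.28 ± 0.08 (adjusted p = 0.013). Xbp1, whose mRNA IRE1 splices, had 0.07 ± 0.10 (adjusted p = 0.60), with vehicle samples from 146 to 197 CPM and PTH samples from 160.4 to 209 CPM. These gene counts do not separate the spliced from the unspliced Xbp1 mRNA. Atf6, the sensor that is itself cut to a transcription factor, had a log2 fold change of 0.05 ± 0.08 (adjusted p = 0.64).

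**Figure D3:**
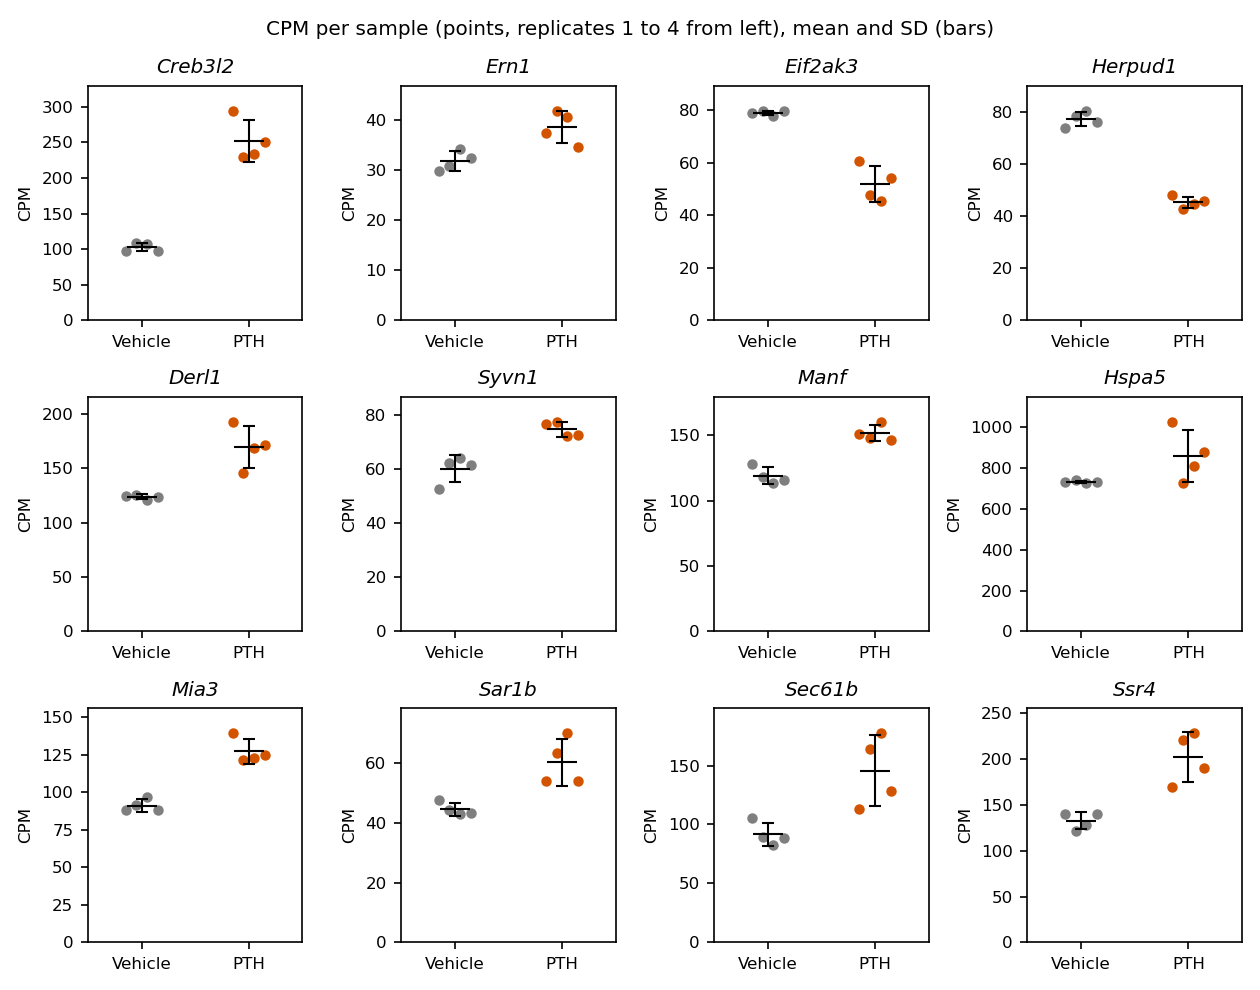
CPM of 12 genes in each vehicle sample (grey points) and PTH sample (orange points), with mean and SD of the 4 samples as black bars; each axis starts at 0. PTH samples lie above all vehicle samples for Creb3l2, Ern1, Derl1, Syvn1, Manf, Mia3, Sar1b, Sec61b and Ssr4, below them for Eif2ak3 and Herpud1, and overlap them for Hspa5.

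ERAD, the route by which misfolded proteins are drawn back to the cytosol and destroyed, had 3 upregulated genes and 1 downregulated gene among 6. The shares over all genes tested were 23.3% and 22.5%, and the median log2 fold change of the 6 was 0.10. Herpud1 encodes a membrane protein that assembles the ERAD complex around the ligase HRD1 and is a standard marker of ER stress (chr8:94386438-94395377). It had 74.1, 78.6, 80.3 and 76.1 CPM with vehicle and 48.0, 42.7, 44.7 and 46.0 CPM with PTH. The lowest vehicle sample was well above the highest PTH sample, and the log2 fold change was -0.77 ± 0.06 (adjusted p = 8.94e-07). Of the 2 genes with ER stress element II in their window, Herpud1 was downregulated and Dnajb11 did not pass the threshold.

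The ligase gene and a channel gene rose. Syvn1, which encodes HRD1 (chr19:6046576-6053712), was at 52.8, 62.4, 64.0 and 61.7 CPM with vehicle and at 76.6, 77.4, 72.3 and 72.5 CPM with PTH (log2 fold change 0.31 ± 0.07, adjusted p = 0.0035). Derl1, a component of the retrotranslocation channel (chr15:57869502-57892448), was at 125, 126, 121 and 124 CPM with vehicle and at 193, 145, 169 and 172 CPM with PTH (log2 fold change 0.45 ± 0.08, adjusted p = 6.11e-04). In both genes every PTH sample exceeded every vehicle sample. Exons of Syvn1 overlap those of Mrpl49 on the opposite strand (log2 fold change -0.32, adjusted p = 0.0088). The strand setting of the counting is not stated.

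Edem1, a mannosidase-like protein that picks glycoproteins for ERAD, was at 109.5, 111, 115 and 129.7 CPM with vehicle and at 164, 123, 127 and 149 CPM with PTH. Its groups overlapped, since 2 PTH samples were below the fourth vehicle sample. It passed the threshold all the same (log2 fold change 0.27 ± 0.10, adjusted p = 0.035) and did so under 8 of 14 alternative fits, with adjusted p between 0.0064 and 0.13 over the 14. Sel1l, the adaptor of HRD1, had -0.06 ± 0.08 (adjusted p = 0.57). Derl3 stayed between 0.499 and 1.23 CPM in all 8 samples, and its standard error of 0.37 shows that a change could not be resolved at this depth.

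Of the 4 translocon genes 2 were upregulated and none downregulated (also 0 without adjustment and by DESeq2), against 23.3% and 22.5% of all genes. Their median was 0.33 on the log2 scale. Sec61b, the small beta subunit of the channel (chr4:47474658-47483242), was at 105, 89.5, 83.0 and 88.4 CPM with vehicle and at 113, 164, 177 and 128 CPM with PTH (log2 fold change 0.67 ± 0.13, adjusted p = 0.0013). Ssr4, the delta subunit of the translocon-associated protein complex (chrX:73787028-73790830), was at 140.5, 122, 129 and 140.5 CPM with vehicle and at 169, 221, 228 and 189.7 CPM with PTH (log2 fold change 0.60 ± 0.10, adjusted p = 2.88e-04). Neither gene's groups overlapped. Sec61a1, the pore subunit, and Ssr1, the alpha subunit of the associated complex, had log2 fold changes of -0.05 ± 0.11 and 0.05 ± 0.09.

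Sec61b and Ssr4 are the only genes of the 40 whose longest coding transcript is under 1000 bases (564 and 800 bases), and they were highest in PTH samples 2 and 3, unlike most of the set. Of all 1719 tested genes under 1000 bases, 37.7% were upregulated (median change 0.38 on the log2 scale), against 21.7% of the 14497 longer genes (median -0.04). With an offset that removes the trend of each sample with transcript length, the log2 fold change was 0.28 for Sec61b (adjusted p = 0.013) and 0.33 for Ssr4 (adjusted p = 0.0017). Both remained upregulated at a smaller size. Sec61b also shares a stretch of 474 bases at 95% identity or more with Gm10320, which had a mean count of 147 beside 5052 for Sec61b.

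**Figure D4:**
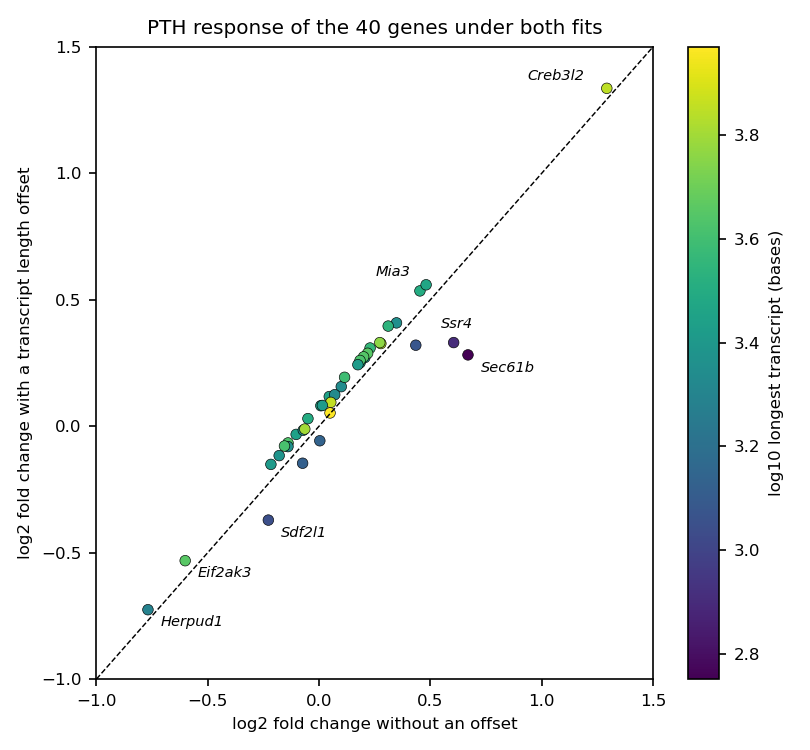
Log2 fold change of each of the 40 genes without an offset (horizontal) and with an offset for transcript length in each sample (vertical), coloured by the log10 of the longest coding transcript in bases; the dashed line marks equal values. Sec61b and Ssr4, the shortest, lie well below the line, and most genes lie slightly above it.

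The offset moved most of the longer genes slightly upward. Under it 17 of the 40 genes were upregulated and 3 downregulated (median 0.12 on the log2 scale). Over all genes with a known transcript length (1719 under 1000 bases and 14497 longer), the same fit gave 3741 upregulated and 3388 downregulated (median 0.00). Without the offset, 3907 and 3762 of all 16736 genes tested were called. Hspa5 (0.31, adjusted p = 0.010), Dnajb9 (0.27, adjusted p = 0.022), Dnajb11 (0.25, adjusted p = 0.012), Ero1l (0.27, adjusted p = 0.014), Sec31a (0.26, adjusted p = 0.0043) and Sar1a (0.24, adjusted p = 0.0072) then passed as upregulated, and Sdf2l1 (-0.37, adjusted p = 0.016) as downregulated. Of the 18 folding genes, 6 were thus upregulated with the offset and 2 without it. Over all genes the number upregulated was 3741 with the offset and 3907 without it.

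COPII transport had 2 upregulated genes and no downregulated gene among 6 (also 0 without adjustment and by DESeq2), against 23.3% and 22.5% of all genes. The median of the 6 was 0.18 on the log2 scale. All PTH samples lay above all vehicle samples in 4 of the 6, against 21.2% of all genes. Mia3 encodes TANGO1, the cargo receptor that packs bulky procollagen into COPII carriers (chr1:183326725-183369553). It was at 87.9, 91.6, 96.7 and 88.3 CPM with vehicle and at 139, 122, 123 and 125 CPM with PTH. The gap between the groups was wider than the range within either, and the log2 fold change was 0.48 ± 0.07 (adjusted p = 8.6e-05). Sar1b, a GTPase that starts coat assembly (chr11:51763687-51791925), was at 47.9, 44.4, 43.0 and 43.3 CPM with vehicle and at 53.9, 63.4, 70.1 and 53.9 CPM with PTH (log2 fold change 0.43 ± 0.09, adjusted p = 0.0018).

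Its paralog Sar1a was the more abundant, with 147 CPM per kilobase against 37.2 for Sar1b in vehicle samples. Sar1a was at 369, 385, 389 and 395 CPM with vehicle and at 479.9, 401, 428 and 427 CPM with PTH (log2 fold change 0.17 ± 0.07, adjusted p = 0.063). The outer coat gene Sec31a ran from 439 to 475 CPM with vehicle and from 486 to 578 CPM with PTH (log2 fold change 0.18 ± 0.07, adjusted p = 0.061). In both genes the groups did not overlap although the test was not passed. The inner coat genes Sec24d, which selects cargo, and Sec23a, which is needed for collagen export in the skull, had log2 fold changes of 0.11 (adjusted p = 0.34) and -0.16 (adjusted p = 0.19).

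Of the 9 genes with an ER stress element in their promoter window, 1 was upregulated (Syvn1) and none downregulated, and their median log2 fold change was 0.00. By the same count, 9 of the 28 other genes with such an element were found by symbol and tested. Of these, 1 was upregulated and 4 were downregulated. Ero1b, listed as Ero1lb in the counts, was missed by this match of names (log2 fold change 0.20, adjusted p = 0.39). Over all genes tested 23.3% were upregulated and 22.5% downregulated, and these few genes were counted without a test.

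Other genes of the same pathways were counted from lists, and their counts stand beside 23.3% upregulated and 22.5% downregulated over all genes tested. Among 31 tested genes of folding, 6 were upregulated and 3 downregulated, from Txndc11, a thioredoxin-domain protein (45.8 ± 3.57 CPM with vehicle and 143 ± 9.26 CPM with PTH, means ± SD of 4 samples, log2 fold change 1.64, adjusted p = 6.19e-09), to Tmx4, a membrane-bound member of the same family (log2 fold change -0.42, adjusted p = 0.0039). Of 25 in ERAD, 8 went each way, with Man1b1, a mannosidase that marks glycoproteins for disposal, at 1.14 (adjusted p = 1.41e-07) and Ngly1, the cytosolic peptide:N-glycanase, at -0.69 (adjusted p = 1.95e-05). Of 30 in translocation and early processing, 8 were upregulated and 1 downregulated. Sec61g, the third channel subunit, had the largest rise (34.96 ± 1.95 CPM and 84.02 ± 29.2 CPM, log2 fold change 1.26, adjusted p = 2.69e-04), and Tram1, a channel-associated membrane protein, the fall (-0.28, adjusted p = 0.019). Of 39 in transport between ER and Golgi, 7 were upregulated and 4 downregulated, between Klhl12, a ubiquitin ligase adaptor that enlarges COPII coats (0.58, adjusted p = 8.46e-04), and Sec16b, a scaffold of ER exit sites (-0.98, adjusted p = 9.27e-07).

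The remaining list held 24 tested genes of the stress response, of which 6 were upregulated and 7 downregulated (median log2 fold change -0.10). Ppp1r15a encodes GADD34, the phosphatase subunit that reverses the phosphorylation of eIF2alpha by PERK, and had the largest rise. It was at 16.3 ± 1.51 CPM with vehicle and 83.4 ± 4.69 CPM with PTH (log2 fold change 2.36 ± 0.08, adjusted p = 4.29e-10). Bhlha15, or MIST1, a factor of professional secretory cells, had the largest fall (log2 fold change -3.68, adjusted p = 0.0014), at 46 to 89 counts per vehicle sample and 0 to 14 per PTH sample. The genes downstream of PERK or of cell death named next were picked after their values were seen. Atf4, the translationally controlled factor of this branch, had 0.49 (adjusted p = 5.92e-05), Atf3 1.41 (adjusted p = 7.33e-06) and Trib3 0.87 (adjusted p = 0.0010). Bcl2l11, the gene of the death factor BIM, had 0.99 (adjusted p = 1.58e-07). Ddit3, which encodes CHOP, had 0.09 (adjusted p = 0.63), Chac1 had -0.63 (adjusted p = 0.044) and Bbc3, the gene of the death factor PUMA, had -1.67 (adjusted p = 2.60e-07). This list therefore had the widest spread of the 5, from -3.68 to 2.36.

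**Figure D5:**
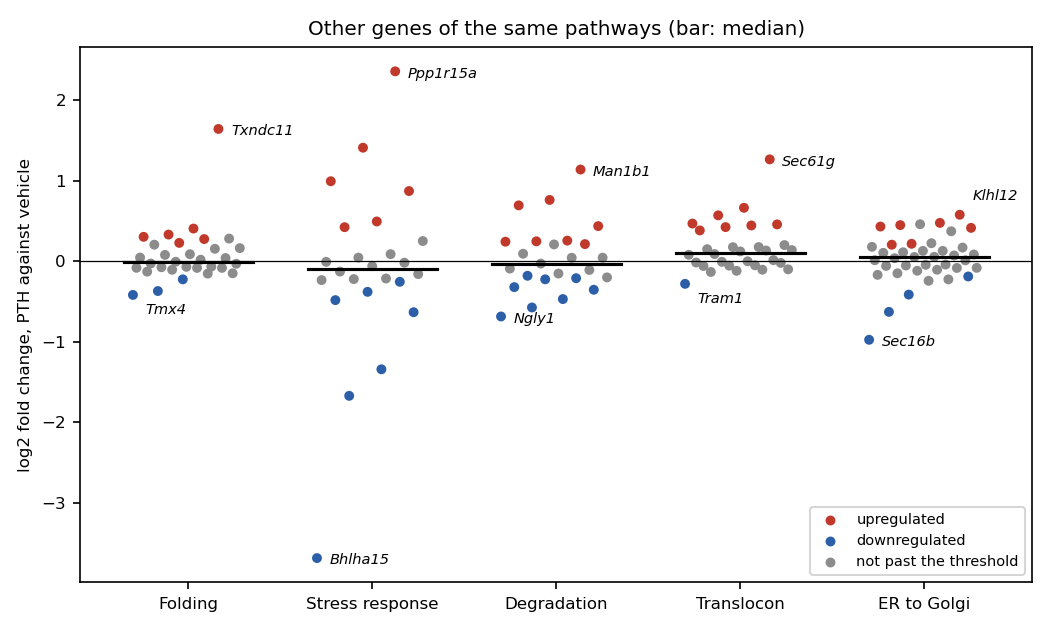
Log2 fold change with PTH against vehicle of the tested genes in 5 lists of other genes from the same pathways (red upregulated, blue downregulated, grey not past the threshold); black bars are medians and horizontal position within a list carries no meaning. The labelled points are the largest rise and fall past the threshold in each list, from Ppp1r15a at 2.36 to Bhlha15 at -3.68.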

How the data were processed

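Poly(A)-enriched libraries were sequenced as paired reads. Alignment to GRCm38 was done by the authors with HISAT2 and assembly with StringTie2, and they deposited a table of counts that StringTie2's companion script derives from transcript coverage. The counts are whole numbers and were not normalized. The read length given to that script, the annotation release, the strand setting and the tool versions are not given in the sources used here. Columns were assigned to samples by name. Where several rows carried one symbol (as for Mia3), the row with the highest mean count was used. 2 rows without a symbol held 0.0028% of counts.

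Counts were tested with edgeR 4.0.16 in R 4.3.3 (TMM normalization, filterByExpr, minimum count 10, minimum total 15, two-sided quasi-likelihood F-test, Benjamini-Hochberg adjustment over 16736 genes, adjusted p under 0.05 and no minimum fold). The step was tested on simulated counts. Alternatives were DESeq2 1.42.0, its size factors in edgeR, no filter, the sample number as a block, counts summed by symbol, an offset for transcript length (lowess trend with a span of 0.3 on log2 CPM with a prior count of 2), and each of the 8 samples left out. Positions and transcript lengths came from GENCODE M21, promoters from RefSeq, and similar sequences from blastn 2.17.0 (at least 150 bases at 95% identity). Figures were drawn with matplotlib 3.10.9.

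The 40 genes, the lists and the alternatives were chosen with earlier results of these data known. The rule for naming genes took all 40, and from each other list the largest rise and the largest fall past the threshold. Outside this rule, 7 genes of the stress response list (Atf4, Atf3, Trib3, Bcl2l11, Ddit3, Chac1 and Bbc3), marker genes, and genes that share a locus, exons or sequence with a member were named, the 7 after their values were seen. Of 156 genes on those lists, 152 were found in the table by symbol and 149 were tested. No pair of samples within a treatment agreed within counting noise (lowest chi-square per degree of freedom 11.0). Depth limits genes with few counts, such as Derl3. Protein sequences were not analysed here.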

Additional observations from a re-analysis of the deposited data

Results flagged for a closer look

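In each treatment, the 40 genes and their summed level were examined for a sample far from the other 3. This gave 5 cases in 82 groups of 4. Chance alone marks about 1 in 20 groups. Dnajb9 was at 40.05 CPM in PTH sample 2, against 48.4 to 50.02 CPM in the other PTH samples. Sdf2l1 was at 16.2 CPM in vehicle sample 3, against 18.9 to 19.0 CPM. Pdia6 was at 326 CPM in vehicle sample 1, against 299.7 to 303 CPM, and Sel1l was at 211.5 CPM in vehicle sample 2, against 195 to 198 CPM. Mia3 was at 139 CPM in PTH sample 1, against 122 to 125 CPM, and it was upregulated in all 14 alternative fits, with log2 fold changes between 0.43 and 0.56.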

How the results depend on the processing

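Of the 13 differentially expressed genes among the 40, Manf, Ern1, Eif2ak3, Creb3l2, Herpud1, Syvn1, Derl1, Sec61b, Ssr4, Sar1b and Mia3 passed the threshold in the same direction under all 14 alternatives, and Hyou1 (5 of 14) and Edem1 (8 of 14) did not. Over the 40 genes and 14 alternatives, 497 of 560 results kept direction and side of the threshold. The 40 genes had 17 upregulated with the transcript length offset, in which folding had 6 upregulated and 1 downregulated, COPII transport 4 upregulated, other ERAD 5 downregulated and other translocon 0 downregulated (by edgeR, with 1 at an unadjusted p under 0.05, and 1 by DESeq2 without the offset). Folding had 1 upregulated by DESeq2, 1 with no filter and 1 with the replicate number as a block. Leaving out 1 sample gave 9 to 16 upregulated and 2 to 6 downregulated among the 40 (6 without PTH 1), 1 to 5 up (5 without PTH 2, 1 without PTH 1, PTH 4 or vehicle 1, 2 or 3) and 0 to 3 down (3 without PTH 1, 1 without PTH 3) for folding, and 2 to 4 up (4 without PTH 2) and 0 to 1 down (1 without PTH 1) for COPII. In the other lists it gave 3 to 6 folding genes down (6 without PTH 1), 8 to 13 translocon genes up (13 without PTH 2) and 0 to 2 down (2 without PTH 1, 0 without PTH 3 or vehicle 2, 3 or 4), and 3 to 8 transport genes down (8 without PTH 1). Over all genes, leaving out 1 sample gave 3412 to 4119 upregulated and 3259 to 3955 downregulated. The cause of these shifts was not tested. Log2 fold changes that turned in sign had not passed the threshold in any fit. They were Creld2 (-0.0294 with no filter, -0.00169 with the block, -0.0574 with the offset, -0.0548 to 0.0794 with a sample left out), P4hb (-0.025 with no filter, -0.00421 with the block, -0.0847 to 0.103), Creb3l1 (-0.0184 with no filter, -0.0683 to 0.101), Sec61a1 (0.0303 with the offset, -0.164 to 0.0454), Hsp90b1 (-0.0642 to 0.151), Pdia3 (-0.198 to 0.000679), Pdia6 (-0.163 to 0.0344), Xbp1 (-0.0123 to 0.144), Atf6 (-0.0188 to 0.13), Sel1l (-0.147 to 0.00402), Derl3 (-0.391 to 0.079) and Ssr1 (-0.0235 to 0.137).

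The labels number the samples 1 to 4 in each treatment without saying that a number marks a shared preparation. Deviations from the treatment means correlated between -0.041 and 0.027 for samples of the same number, so the numbers were not taken as pairs. With the number as a replicate block, 10 of the 40 genes were upregulated and 2 downregulated, Hyou1 being the call that was lost, and over all genes 3571 were upregulated and 3432 downregulated.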
